A study of Arabidopsis thaliana with 6 samples.

Results

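Arabinogalactan proteins (AGPs) and fasciclin-like arabinogalactan proteins (FLAs) form the group of genes described here, in seeds of Arabidopsis thaliana that differ in a chlorophyll synthase genotype. The members were the gene models whose short description in the deposited table holds the word arabinogalactan or fasciclin, in any case. They were 57 of 32678 gene models, 31 AGP genes and 26 FLA genes. The rule used no measured value.

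The 3 non-green libraries came from yellow seeds of the genotype labelled Atchlsyn1-1. The 3 green libraries came from green seeds of the genotype labelled Atchlsyn1-1/CHLSYN. Both groups carry the chlorophyll synthase mutant as their source label, both genotype labels name the mutant allele, and the seeds were taken from siliques and sorted by colour. No library of seeds without that allele was used here. The titles of the non-green libraries, like those of the green ones, hold the word photosynthetic, and the groups were taken from the genotype and tissue labels. The sources used here do not give the kind of mutation, the age of the seeds or how many plants a library pools. No label says that replicates came from separate plants, so a p-value here speaks of the spread between the deposited libraries, which may be only technical. In whole seeds, fewer cells of a type and less RNA per cell cannot be told apart.

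AGPs are cell-surface and wall glycoproteins whose short protein backbone is rich in proline, alanine, serine and threonine and carries large branched arabinogalactan chains. Prolines in Ala-Pro, Pro-Ala, Ser-Pro and Thr-Pro pairs are hydroxylated and then receive the sugar, and many members are held at the plasma membrane by a lipid (GPI) anchor. Classical AGPs have a long backbone of this kind, lysine-rich AGPs have one that is broken by a short lysine-rich stretch, and AG peptides are the shortest. FLAs join such stretches to fasciclin domains, which are known for cell adhesion, and have been sorted by sequence into groups A to D. In seeds, SOS5 (also named FLA4) is known for its part in the adherence of mucilage to the coat.

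AG peptides were 3 of the 4 members with the highest levels. The coding windows of 5 AG peptides are shown because AGP14 and AGP15, both of this class, moved in opposite directions. They were read from the RefSeq sequence and annotation of assembly TAIR10.1, run 5′ to 3′ on the coding strand from start to stop codon, and have in capitals the codons of Ala-Pro, Pro-Ala, Ser-Pro and Thr-Pro pairs. AGP14 lies at chr5:22893243-22893425 on the plus strand, AGP13 at chr4:13317235-13317414 on the minus strand, AGP12 at chr3:4409087-4409269 on the plus strand, AGP21 at chr1:20648634-20648810 on the minus strand and AGP15 at chr5:3784318-3784503 on the plus strand.
AGP14: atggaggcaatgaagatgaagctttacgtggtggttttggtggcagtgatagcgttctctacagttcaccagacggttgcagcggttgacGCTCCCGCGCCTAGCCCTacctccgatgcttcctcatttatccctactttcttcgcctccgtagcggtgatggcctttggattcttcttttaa
AGP13: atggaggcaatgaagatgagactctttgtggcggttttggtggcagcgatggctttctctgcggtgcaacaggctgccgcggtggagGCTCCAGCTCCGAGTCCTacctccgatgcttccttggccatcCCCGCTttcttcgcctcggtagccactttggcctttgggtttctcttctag
AGP12: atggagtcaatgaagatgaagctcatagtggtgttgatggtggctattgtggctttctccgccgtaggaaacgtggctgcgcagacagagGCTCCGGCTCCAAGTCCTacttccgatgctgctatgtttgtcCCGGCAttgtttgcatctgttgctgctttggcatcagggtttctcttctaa
AGP21: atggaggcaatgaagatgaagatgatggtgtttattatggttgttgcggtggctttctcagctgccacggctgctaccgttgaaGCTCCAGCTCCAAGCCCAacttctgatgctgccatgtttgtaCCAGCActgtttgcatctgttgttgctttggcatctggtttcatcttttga
AGP15: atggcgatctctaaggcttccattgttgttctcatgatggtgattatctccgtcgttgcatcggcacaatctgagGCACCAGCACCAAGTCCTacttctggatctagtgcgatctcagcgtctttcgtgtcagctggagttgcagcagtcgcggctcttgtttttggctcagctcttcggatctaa

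In each of these 5 windows the longest stretch in capitals is 6 codons and lies in the backbone of the mature peptide. AGP14 and AGP15 have 1 such stretch, and AGP12, AGP13 and AGP21 have a second, shorter one. The 12 AG peptides have 58 to 74 codons, against 116 to 191 in the 13 classical AGPs. Codons for proline, alanine, serine and threonine made up a median of 53.6% of the codons of the 31 AGP genes and 32.9% of those of the 26 FLA genes, and 63.4% of those of the classical AGPs.

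Libraries held 16438639 to 16745514 counts. The chlorophyll synthase gene CHLG had 11, 6 and 9 counts in the non-green libraries, labelled Atchlsyn1-1, and 46, 50 and 65 counts in the green libraries, labelled Atchlsyn1-1/CHLSYN, without overlap. Of 17239 genes that passed the filter on low counts, 26.6% were called by edgeR's quasi-likelihood test (Benjamini-Hochberg adjusted p under 0.05), 14.2% higher and 12.5% lower in non-green seeds.

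Many AGP genes had more transcript in non-green seeds, while the AGP with the highest level, AGP14, had less. Of the 57 members, 6 had no count in any library, 19 had counts but too few to be tested, and 32 were tested. Among the 32 tested members, 16 rose and 5 fell (21 called, against the 26.6% called among all genes tested), and 11 did not pass. Their median log2 fold change was 0.31, against 0.00 over all genes tested. The 20 tested AGP genes had 14 that rose, 1 that fell and a median log2 fold change of 0.65. The 12 tested FLA genes had 2 that rose, 4 that fell and a median of -0.02. All 3 libraries of both groups were over the filter's minimum in 31 of the 32. AGP4 was over it in 3 non-green libraries and 1 green library, so it passed only because the non-green group was high. In 23 of the 32 the CPM (counts per 1000000 of the TMM-scaled library) of the groups did not overlap, which held for 37.3% of all genes tested. Scaling by total counts raised the median of all genes by 0.07 on the log2 scale. The split of calls was then 17 higher and 4 lower among members and 3266 higher (18.9%) and 1364 lower (7.91%) among all genes tested, against 2444 higher and 2149 lower with TMM scaling.

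**Figure D1:**
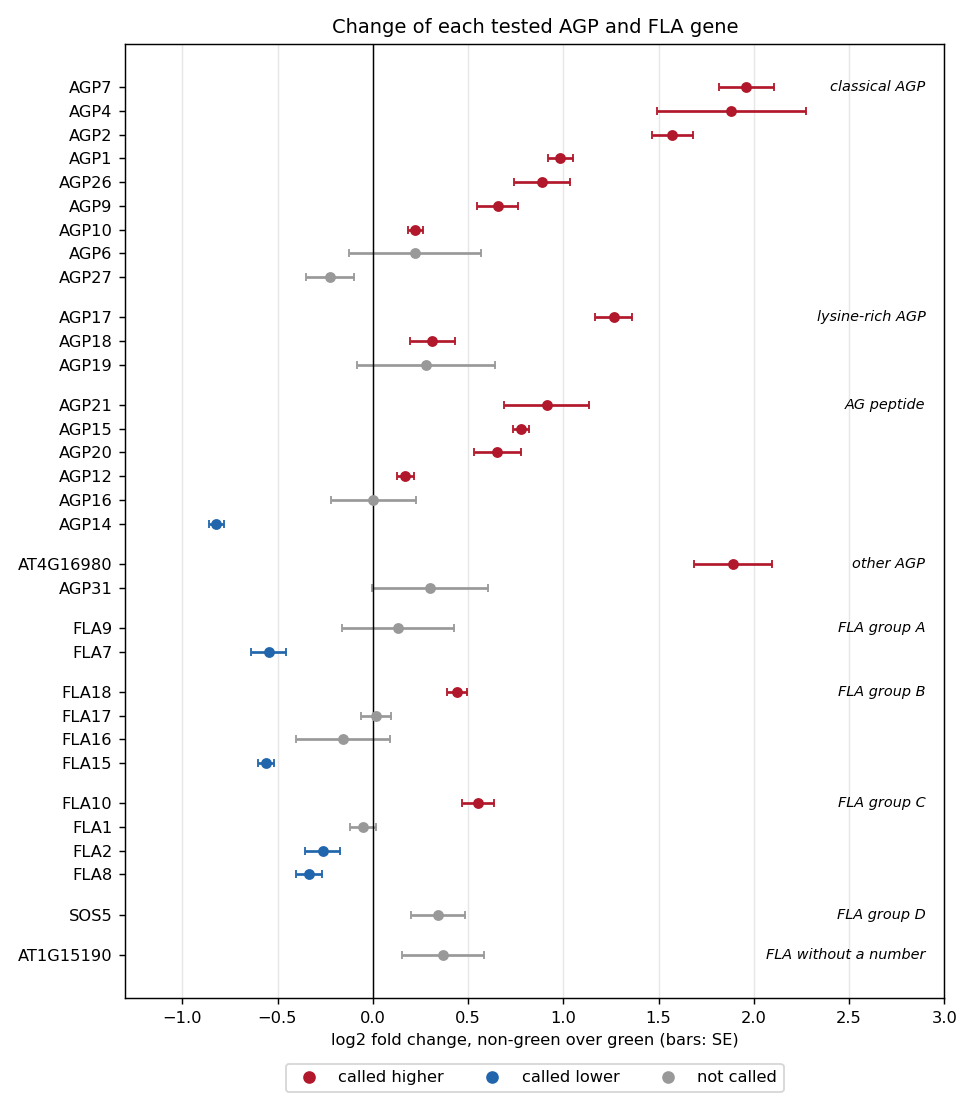
Log2 fold change of non-green over green seeds (x axis, edgeR, points with bars of 1 SE) for the 32 tested AGP and FLA genes, grouped by class down the page. The 7 called classical AGPs, from AGP7 to AGP10, lie right of 0, AGP14 lies apart from the other AG peptides at -0.82, and FLA genes lie between -0.56 and 0.55.

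Levels per length, given by the authors as RPKM (reads per kilobase of gene model and 1000000 counts), differed widely between members. RPKM is scaled by the library total and the log2 fold changes by TMM. Ratios of non-green to green RPKM therefore lie somewhat above the fitted fold changes. By mean RPKM over the 6 libraries AGP14 ranked 52 among all genes at 1022 RPKM, AGP10 ranked 99 at 408 RPKM, AGP15 ranked 137 at 300 RPKM and AGP12 ranked 172 at 240 RPKM. FLA15, the highest FLA gene, followed at 88.9 RPKM and rank 594. All other members were lower, and the lowest tested member, AGP31, averaged 1.5 ± 0.258 RPKM in non-green and 1.16 ± 0.113 RPKM in green seeds (SD, n = 3 each).

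**Figure D2:**
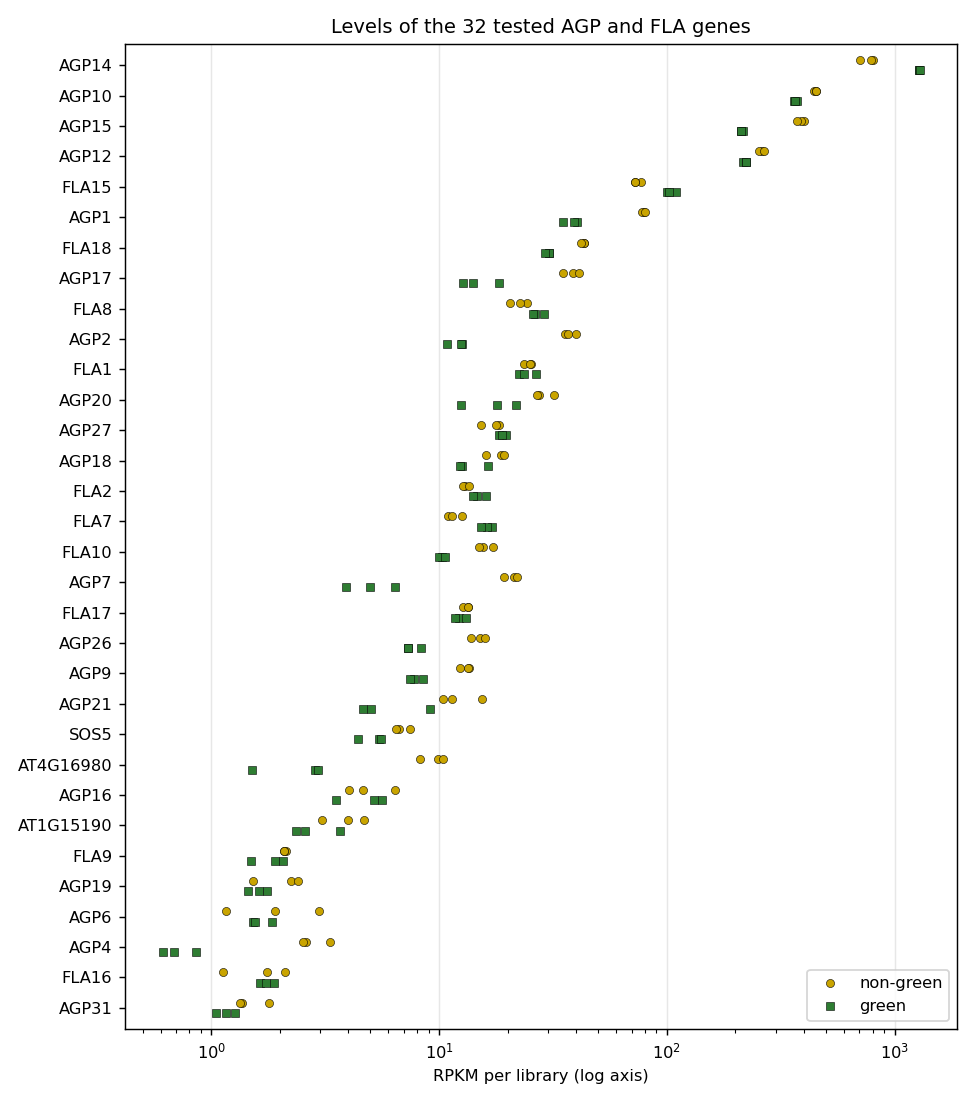
RPKM per library on a log axis for the 32 tested members, ordered by mean level, with circles for non-green and squares for green libraries. AGP14 has 707 to 800 RPKM in non-green and 1274 to 1286 RPKM in green libraries, and AGP4 has 2.54 to 3.31 RPKM in non-green and 0.614 to 0.856 RPKM in green libraries.

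AGP14, whose mutants are known for longer root hairs, was the AG peptide that fell. Its RPKM was 707, 800 and 784 in the non-green libraries and 1274, 1282 and 1286 in the green libraries. All non-green libraries were below all green ones, and the green libraries lay within a narrow band. Its log2 fold change was -0.82 ± 0.04 (SE), with an edgeR adjusted p of 2.19e-32. AGP13, the member whose coding sequence is nearest to it (77.0% identical), had 0, 0 and 3 counts in non-green and no count in green libraries, and shares no run of 36 bases with it.

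The other AG peptides at high level moved the opposite way. AGP15 had 398, 386 and 373 RPKM in non-green and 212, 217 and 212 RPKM in green libraries. The groups were far apart relative to the spread within them, with a log2 fold change of 0.78 ± 0.04 and an edgeR adjusted p of 1.58e-28. AGP12 had 262, 252 and 266 RPKM in non-green and 215, 221 and 221 RPKM in green libraries. This gap was smaller but still free of overlap, with a log2 fold change of 0.17 ± 0.04 and an edgeR adjusted p of 0.00141.

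AGP20 and AGP21, at lower levels, rose by more than AGP12 did. AGP20 averaged 28.8 ± 2.64 RPKM in non-green and 17.4 ± 4.62 RPKM in green seeds (SD, n = 3 each), with the green libraries well spread, and its log2 fold change was 0.65 ± 0.12 (adjusted p 9.2e-06 by edgeR). AGP21, known in root hair formation, averaged 12.4 ± 2.63 RPKM in non-green and 6.27 ± 2.48 RPKM in green seeds, with a log2 fold change of 0.91 ± 0.22 (adjusted p 0.000716 by edgeR). AGP16, the nearest relative of AGP20 with 84.4% identity over the coding sequence, averaged 5.03 ± 1.26 RPKM in non-green and 4.78 ± 1.1 RPKM in green seeds and did not pass (log2 fold change 0.00, 95% interval -0.44 to 0.44). Of the 12 AG peptides, 6 were tested, 4 rose and 1 fell, beside 14.2% called higher and 12.5% lower among all genes tested. AGP22 was not tested, with 14, 8 and 21 counts in non-green and 1, 1 and 6 counts in green libraries. These counts do not overlap. AGP22 was over the filter's minimum in 2 non-green libraries and 0 green ones, so a fit with the filter could hold it only through the group where it was high, and the alternatives that tested it are no support for a difference.

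The remaining AG peptides were close to silent. AGP40 had no count in any library, and AGP23, AGP24 and AGP41 had 9, 35 and 9 counts over all 6 libraries.

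Most of the tested classical AGPs rose. Of the 13, 9 were tested, 7 rose and 2 did not pass, beside 14.2% called higher among all genes tested. AGP4 is among the 7 and passed the filter only through the non-green group. None fell by edgeR, at an unadjusted p under 0.05 or by DESeq2 (0 each). AGP10, the most abundant of them, had 443, 453 and 453 RPKM in non-green and 361, 374 and 363 RPKM in green libraries. The groups were apart with a small fold, a log2 fold change of 0.22 ± 0.04 (adjusted p 3.38e-06 by edgeR). AGP1 had 79.5, 77.9 and 80.5 RPKM in non-green and 40.2, 35.1 and 38.9 RPKM in green libraries. Every non-green library was above all green ones, with a log2 fold change of 0.98 ± 0.07 (adjusted p 1.38e-22 by edgeR).

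AGP2 and AGP7 rose more steeply. AGP2 had 35.8, 36.8 and 39.9 RPKM in non-green and 10.9, 12.6 and 12.4 RPKM in green libraries, a fold of 2.97 with a log2 fold change of 1.57 ± 0.11 (adjusted p 1.34e-22 by edgeR). AGP7 had 15.6, 14.2 and 16.5 CPM in non-green and 3.83, 3.07 and 4.95 CPM in green libraries. That is a fold of 3.89, with a log2 fold change of 1.96 ± 0.15 (adjusted p 1.88e-20 by edgeR). In both genes the lowest non-green library was well above the highest green one. AGP4, known for its part in keeping further pollen tubes out of a fertilised ovule, had 34, 33 and 43 counts in non-green and 11, 8 and 9 counts in green libraries. Its log2 fold change was 1.88 ± 0.39 (adjusted p 6.27e-05 by edgeR), at 2.81 ± 0.429 RPKM in non-green and 0.719 ± 0.124 RPKM in green seeds. AGP4 passed the filter only through the non-green group, where it was high, so this call is no support for a difference.

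AGP26 and AGP9 rose less steeply. AGP26 had 13.8, 15.1 and 15.9 RPKM in non-green and 7.31, 7.30 and 8.37 RPKM in green libraries, with a log2 fold change of 0.89 ± 0.15 (adjusted p 6.22e-07 by edgeR). AGP9 had 12.4, 13.5 and 13.4 RPKM in non-green and 7.73, 7.49 and 8.47 RPKM in green libraries, with a log2 fold change of 0.66 ± 0.11 (adjusted p 6.96e-07 by edgeR). The groups were apart in both genes. AGP27 averaged 17.1 ± 1.66 RPKM in non-green and 19.0 ± 0.693 RPKM in green seeds and did not pass (log2 fold change -0.22, adjusted p 0.209 by edgeR).

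AGP6 and AGP11 are known from pollen, where they act in the growth of pollen tubes. AGP6 had 44, 28 and 17 counts in non-green and 22, 27 and 23 counts in green libraries and did not pass (log2 fold change 0.22, adjusted p 0.705 by edgeR). AGP11 had 10, 4 and 3 counts in non-green and 8, 4 and 0 counts in green libraries and was not tested. AGP3, AGP5 and AGP25 were likewise untested, with 14, 46 and 35 counts over all libraries.

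**Figure D3:**
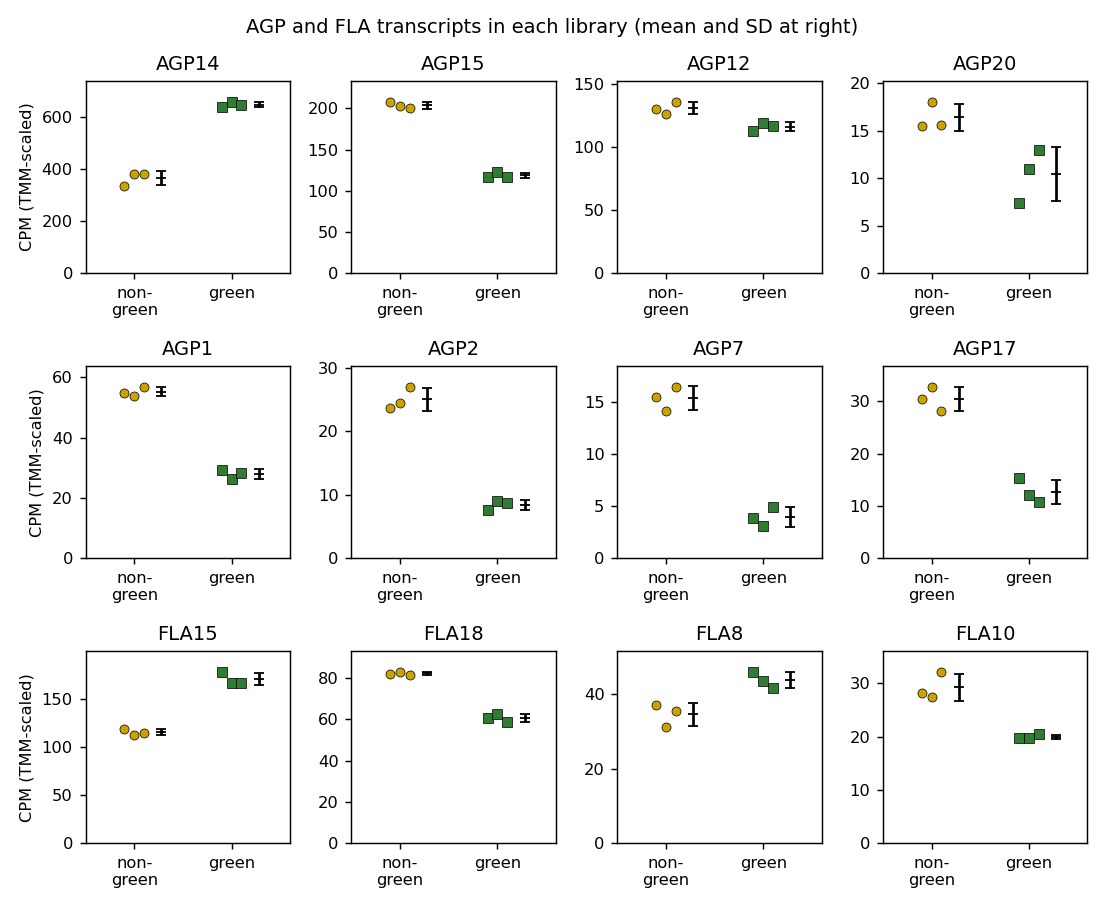
TMM-scaled CPM in each library (circles non-green, squares green, mean with bars of 1 SD at the right of each group) for 12 members, 4 AG peptides on top, 3 classical and 1 lysine-rich AGP in the middle and 4 FLA genes at the bottom. The groups do not overlap in any panel, and AGP14, FLA15 and FLA8 are the panels with the non-green libraries lower.

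The lysine-rich AGPs are AGP17, AGP18 and AGP19, and AGP17 rose the most. AGP17, known for its part in the binding of Agrobacterium to roots, had 38.5, 41.3 and 34.9 RPKM in non-green and 18.4, 14.2 and 12.8 RPKM in green libraries. The groups were apart, with a fold of 2.40 and a log2 fold change of 1.27 ± 0.10 (adjusted p 1.05e-19 by edgeR). AGP18, known for its need in the formation of the female gametophyte, had 16.0, 18.6 and 19.3 RPKM in non-green and 12.6, 12.3 and 16.4 RPKM in green libraries. These overlapped, and the log2 fold change was 0.31 ± 0.12 with an edgeR adjusted p of 0.0374. That call did not hold without green replicate 1 (adjusted p 0.182), green replicate 2 (0.164), non-green replicate 2 (0.108) or non-green replicate 3 (0.182), nor with DESeq2 (0.0863). AGP19 averaged 2.06 ± 0.469 RPKM in non-green and 1.61 ± 0.158 RPKM in green seeds and did not pass (log2 fold change 0.28, 95% interval -0.43 to 0.99).

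AT4G16980, AGP31 and AGP30 fall outside these classes. AT4G16980, which the table describes only as of the arabinogalactan protein family, had 6.63, 7.99 and 8.64 CPM in non-green and 2.41, 2.57 and 1.28 CPM in green libraries. Its lowest non-green value was above its highest green value by a wide margin, with a fold of 3.71 and a log2 fold change of 1.89 ± 0.21 (adjusted p 1.37e-12 by edgeR). AGP31, a member with a histidine-rich stretch, did not pass (log2 fold change 0.30, 95% interval -0.30 to 0.90). AGP30, known from roots, had no count in any library. AGP7, AT4G16980, AGP4, AGP2 and AGP17 were the 5 members higher by 2-fold or more among the called, which held for 2.4% of all genes tested. AGP4 entered the test only through the non-green group, where it was high, and is no support in that comparison. No called member (0) was lower by 2-fold or more, which held for 0.568% of all genes tested.

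FLA genes moved in both directions and by less. In group B, FLA15 had 76.7, 72.7 and 72.6 RPKM in non-green and 110, 99.7 and 102 RPKM in green libraries. The non-green libraries were all lower, with a log2 fold change of -0.56 ± 0.04 (adjusted p 8.21e-20 by edgeR). FLA18 had 43.2, 43.4 and 41.8 RPKM in non-green and 30.3, 30.5 and 29.1 RPKM in green libraries. It rose, with a log2 fold change of 0.44 ± 0.05 (adjusted p 3.38e-11 by edgeR). FLA16 and FLA17 did not pass, at log2 fold changes of -0.16 (95% interval -0.64 to 0.33) and 0.02 (-0.14 to 0.17).

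In group C the relatives FLA8 and FLA10, with 81.1% identity over the coding sequence, were called in opposite directions. FLA10 had 28.2, 27.4 and 32.1 CPM in non-green and 19.8, 19.7 and 20.4 CPM in green libraries, with a log2 fold change of 0.55 ± 0.08 (adjusted p 1.09e-07 by edgeR). FLA8, also named AGP8, averaged 22.6 ± 1.99 RPKM in non-green and 27.1 ± 1.53 RPKM in green seeds (SD, n = 3 each), with a log2 fold change of -0.34 ± 0.07 (adjusted p 5e-05 by edgeR). The ratio of FLA8 to FLA10 was 1.57, 1.36 and 1.32 in non-green and 2.78, 2.64 and 2.44 in green libraries, without overlap. These 2 genes share 24 runs of 36 bases. No other member without an overlapping gene on the other strand shares one with another transcript. For members with such an overlap, sharing elsewhere was not separated from it. How reads with several matches were counted is not given, so some of their counts could be exchanged. FLA2 averaged 13.1 ± 0.352 RPKM in non-green and 14.9 ± 1.01 RPKM in green seeds, with a log2 fold change of -0.26 ± 0.09 (adjusted p 0.0199 by edgeR). That call did not hold without green replicate 1 (adjusted p 0.112), non-green replicate 1 (0.0622) or non-green replicate 2 (0.068), nor with scaling by total counts (log2 fold change -0.19, adjusted p 0.125). FLA1 did not pass (log2 fold change -0.05, 95% interval -0.18 to 0.08), and FLA3, FLA5 and FLA14 were untested, at 12, 12 and 5 counts over all libraries.

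Group A holds FLA11 and FLA12, known from secondary walls of stems. FLA11 had 0, 3 and 3 counts in non-green and 4, 7 and 6 counts in green libraries, and FLA12 had 0, 1 and 5 counts in non-green and 2, 6 and 0 counts in green libraries. Neither was tested. FLA7 was the called gene of this group, with 11.7 ± 0.824 RPKM in non-green and 16.2 ± 0.946 RPKM in green seeds and a log2 fold change of -0.55 ± 0.09 (adjusted p 1.01e-06 by edgeR). FLA9 did not pass (log2 fold change 0.13, 95% interval -0.45 to 0.71), FLA13 was untested and FLA6 had no count.

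Of the 3 FLA genes placed in group D here, SOS5, FLA20 and FLA21, 1 was tested. SOS5 averaged 6.86 ± 0.515 RPKM in non-green and 5.14 ± 0.618 RPKM in green seeds, without overlap in CPM, and did not pass (log2 fold change 0.34, 95% interval 0.07 to 0.62, adjusted p 0.0604 by edgeR). It passed with scaling by total counts (log2 fold change 0.42, adjusted p 0.0182) and without green replicate 2 (0.41, adjusted p 0.045). FLA20 had 4 counts in 1 non-green library and FLA21 had none. Of the 6 FLA genes without a number in the table, AT1G15190 was tested and did not pass (log2 fold change 0.37, adjusted p 0.221 by edgeR), and AT5G16920 and AT1G30800 had no count.

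Summed over all 57 members, the level per length was 2401 ± 42.4 RPKM in non-green and 2490 ± 4.17 RPKM in green seeds (SD, n = 3 each), with every non-green library lower. Its make-up differed more than its size. AGP14 held 31.8% ± 1.54 of the summed RPKM in non-green and 51.4% ± 0.178 in green seeds. AGP15 held 16.1% ± 0.772 in non-green and 8.57% ± 0.118 in green seeds, and AGP10 held 18.7% ± 0.106 in non-green and 14.7% ± 0.271 in green seeds. The 27 AGP genes other than AGP14, AGP10, AGP15 and AGP12 held 12.8% ± 0.154 in non-green and 6.35% ± 0.345 in green seeds. FLA genes held 9.75% ± 0.317 in non-green and 10.1% ± 0.410 in green seeds, with overlap. These shares are descriptions and are tied to one another, since they add up to the whole in each library.

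**Figure D4:**
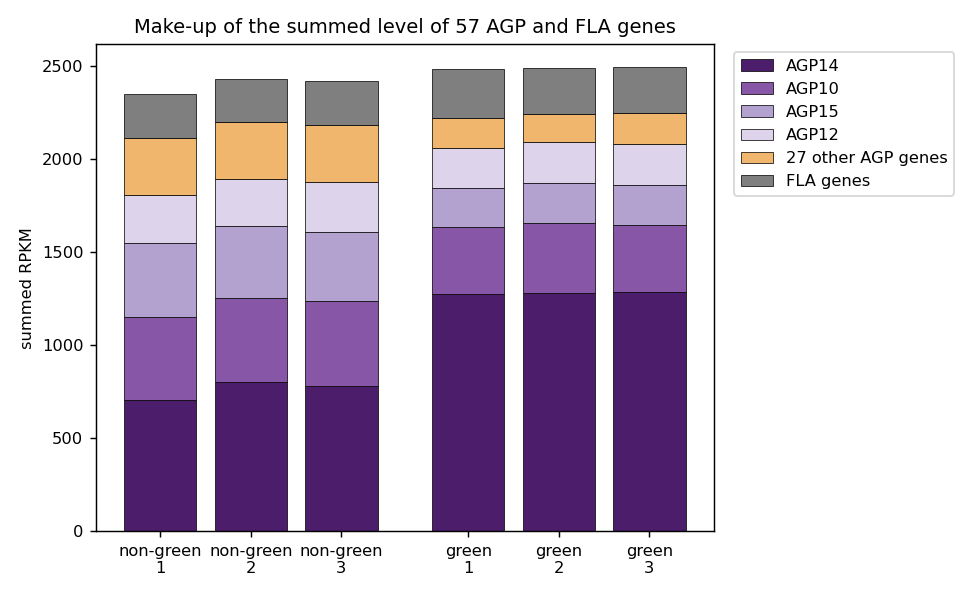
Summed RPKM of the 57 members in each library (bars from 0, non-green libraries at the left), split into AGP14, AGP10, AGP15, AGP12, the 27 other AGP genes and the FLA genes. The AGP14 block holds 30% to 32.9% of the bar in non-green and 51.2% to 51.5% in green libraries, and the FLA block is near 10% in all.

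By class, the classical AGPs summed to 639 ± 7.47 RPKM in non-green and 460 ± 2.81 RPKM in green seeds. The lysine-rich AGPs summed to 58.3 ± 2.75 RPKM in non-green and 30.5 ± 2.38 RPKM in green seeds. AG peptides went the other way, with 1459 ± 37.2 RPKM in non-green and 1743 ± 12.7 RPKM in green seeds, a difference that AGP14 alone exceeds. FLA group B summed to 132 ± 2.49 RPKM in non-green and 148 ± 5.20 RPKM in green seeds, and FLA group C to 76.6 ± 3.55 RPKM in non-green and 76.8 ± 4.45 RPKM in green seeds.

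Pairs of near relatives were compared by the ratio of their RPKM within a library, for the 7 pairs with at least 70% coding identity and both members tested. With 3 libraries against 3 the exact two-sided permutation test cannot go below p = 0.1, which is 0.233 after adjustment over the 7 pairs. FLA8 to FLA10, FLA17 to FLA18 and FLA16 to FLA18 reached that smallest p. FLA17 to FLA18 was 0.309 ± 0.0134 in non-green and 0.414 ± 0.0343 in green seeds, and AGP16 to AGP20 was 0.177 ± 0.0565 in non-green and 0.291 ± 0.114 in green seeds, with overlap (exact p 0.2). AGP12 to AGP21 was 21.5 ± 3.94 in non-green and 38.4 ± 13 in green seeds (exact p 0.2).

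Genes on the other strand overlap 12 members in the RefSeq annotation, among them 5 called ones, AGP4, AGP10, AGP21, AGP26 and AT4G16980. The sources used here do not say whether strand was used in counting. If it was not, reads of a member and of its partner on the other strand cannot be told apart. The partners of the 5 called ones have no counts of their own among the deposited gene models.

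Among the genes that turn the protein backbone into an arabinogalactan protein, 1 of 9 tested prolyl 4-hydroxylases and 3 of 17 tested sugar-chain enzymes were called, beside 26.6% of all genes tested. Prolyl 4-hydroxylases, which hydroxylate the prolines that receive sugar, numbered 12, of which 9 were tested. Of these 1 rose, AT5G18900, at 55.6 ± 1.75 CPM in non-green and 49.1 ± 3.50 CPM in green seeds (log2 fold change 0.18 ± 0.06, adjusted p 0.019 by edgeR), and none fell (0 at an unadjusted p under 0.05 and 0 by DESeq2). Sugar-chain enzymes numbered 21, of which 17 were tested, 2 rose, 1 fell and the median log2 fold change was 0.00. The galactosyltransferase family gene AT5G62620 averaged 115 ± 3.01 CPM in non-green and 94.8 ± 0.974 CPM in green seeds (log2 fold change 0.28 ± 0.05, adjusted p 6.59e-07 by edgeR). AT1G27120 of the same family averaged 24.4 ± 1.30 CPM in non-green and 17.6 ± 0.286 CPM in green seeds (log2 fold change 0.47 ± 0.09, adjusted p 1.39e-05 by edgeR). The gene that fell was AT1G74800 of this family, at 3.34 ± 0.195 CPM in non-green and 4.84 ± 0.828 CPM in green seeds (log2 fold change -0.54 ± 0.21, adjusted p 0.0424 by edgeR). The call of AT1G74800 was lost under 7 of the 11 alternatives and that of AT5G18900 without green replicate 3 or non-green replicate 3.

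Receptor kinases and cellulose genes that work beside these proteins had small fold changes. FEI1, a receptor kinase known to act with SOS5, averaged 44.7 ± 2.31 CPM in non-green and 39.8 ± 2.03 CPM in green seeds (log2 fold change 0.17 ± 0.07, adjusted p 0.0455 by edgeR), and FEI2 did not pass. The call of FEI1 was lost under 7 of the 11 alternatives. Of 9 genes of primary wall cellulose, all tested, 2 rose (CESA2 and CESA9) and 3 fell (CESA1, CESA3 and KOR1). Over all genes tested, 14.2% were called higher and 12.5% lower. The call of CESA1 was lost under 3 of the 11 alternatives and that of CESA3 under 1, both of them with scaling by total counts, which left 1 gene of the list called lower. CESA2 rose, at 160 ± 1.05 CPM in non-green and 139 ± 2.58 CPM in green seeds (log2 fold change 0.21 ± 0.04, adjusted p 3.24e-05 by edgeR). KOR1, an endoglucanase of cellulose synthesis, fell, at 187 ± 0.921 CPM in non-green and 230 ± 6.14 CPM in green seeds (log2 fold change -0.30 ± 0.04, adjusted p 1.42e-09 by edgeR). Of 10 secondary wall genes, 4 were tested and none was called by edgeR (0 at an unadjusted p under 0.05 and 0 by DESeq2).

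Some markers of seed parts differed between the groups. Over all genes tested, 14.2% were called higher and 12.5% lower. Of 13 seed coat markers 12 were tested and 7 fell by edgeR, none rose (0 at an unadjusted p under 0.05 and 0 by DESeq2), with log2 fold changes from -0.89 (GL2, a regulator of coat mucilage cells) to -0.30 (MUM4). The markers' summed level was 846 to 860 CPM in non-green and 1147 to 1209 CPM in green libraries. TT12 had 1 count in all. Of 7 endosperm markers 3 were tested and 2 were called lower, MEA and ALE1. ALE1 was over the filter's minimum in 1 non-green library and 3 green ones, so it was tested only because the green group was high. The 7 markers had summed levels of 4.32 to 4.96 CPM in non-green and 7.40 to 11 CPM in green libraries, and PHE1 had no count. Of 8 silique wall markers 4 were tested and 2 rose, FIL (log2 fold change 0.22 ± 0.07) and YAB3 (0.22 ± 0.08), calls lost under 2 and 4 of the 11 alternatives, while FUL, NST1 and NST3 had no count. Their summed level was 78.5 to 95.8 CPM in non-green and 74.5 to 81.6 CPM in green libraries, with overlap. Of 7 embryo and storage genes, all tested, OLEO1 rose (a call lost under 5 of the 11 alternatives) and CRU1, CRU2, CRU3 and SESA1 fell, and the list summed to 377378 to 393889 CPM in non-green and 416567 to 435389 CPM in green libraries. The part of these markers in the AGP and FLA results was not tested.

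**Figure D5:**
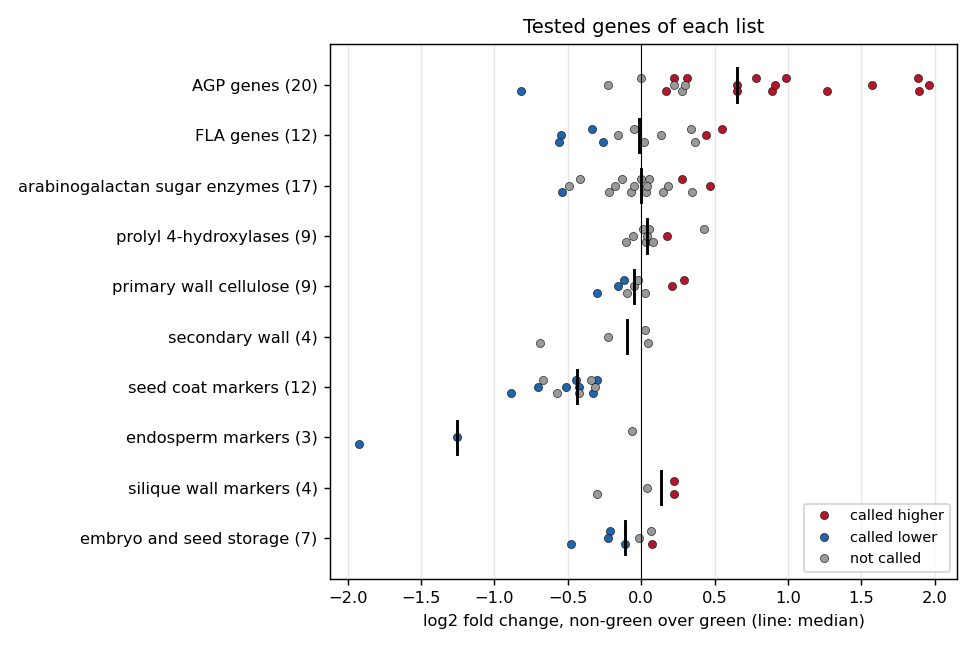
Log2 fold change of non-green over green seeds (x axis) for the tested genes of each list, with the number tested in brackets, 1 point a gene and a black line at the median. The AGP genes have a median of 0.65, the FLA genes -0.02 and the sugar-chain enzymes 0.00, while the seed coat markers all lie left of 0 with a median of -0.44.

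The 250 bases before the annotated start of AGP2 are shown, because of the members AGP2 has the most matches to the short motifs searched there. They lie at chr2:9538964-9539213 on the minus strand of TAIR10.1 and are printed 5′ to 3′ in the direction of the gene. Capitals mark TTGAC, the core of the W-box of WRKY factors, and ACGTG, the core of the abscisic acid response element, on either strand.
AGP2: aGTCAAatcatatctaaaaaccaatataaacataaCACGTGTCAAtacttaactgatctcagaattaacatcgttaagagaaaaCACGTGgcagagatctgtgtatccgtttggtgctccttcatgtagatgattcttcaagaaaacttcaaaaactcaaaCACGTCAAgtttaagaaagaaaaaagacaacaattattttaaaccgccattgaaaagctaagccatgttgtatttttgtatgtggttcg

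This window has 3 matches to TTGAC and 5 to ACGTG, where a CACGTG counts on both strands and neighbouring matches can overlap. Over the same 250 bases, TTGAC was found in 20 of the 57 members (35.1%) and in 44.9% of 27443 protein-coding genes, and ACGTG in 6 of the 57 members (10.5%) and in 22.9% of those genes. Of the 16 members that rose, 5 had TTGAC and 2 had ACGTG. Of the 5 that fell, 1 had TTGAC and 2 had ACGTG.

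Of the members, 21 passed an adjusted p under 0.05 in the authors' deposited table, 16 higher and 5 lower. Of these 20 were also called by edgeR, all with the same sign. The share of all genes past that threshold in the authors' deposited table was not computed. Both comparisons rest on the same 6 libraries, so their overlap is no independent support. AGP4 is among the 20 and passed the filter here only through the non-green group. AGP22 was called in the authors' deposited table alone, and AGP18 by edgeR alone.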

How the data were processed

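RNA was measured in 6 libraries of whole seeds, 3 non-green and 3 green, grouped by their genotype and tissue labels. Per the labels' protocols, Trizol was used for RNA and an Illumina TruSeq kit for libraries. The aligner was Bowtie 0.12.2 and the build TAIR10, per the submitters' processing notes. The sources used here do not give the counting program, whether strand was used, or how reads with more than 1 match were counted. The authors deposited raw read counts and RPKM values per gene model and library. Of 29216 deposited RPKM values, 100% gave a whole gene length within 0.05 bases when set against the counts, so RPKM is the same count per length and library total. The authors' deposited table also holds their mean signal, log2 fold change, test score and p-values. Only their log2 fold changes and adjusted p-values were used, for comparison.

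In R 4.3.3, with edgeR 4.0.16 on limma 3.58.1, all 17239 genes left by filterByExpr (minimum count 10) were fitted with TMM scaling and group as the only term, and tested two-sided with the quasi-likelihood test. Called genes have a Benjamini-Hochberg adjusted p under 0.05 over all genes tested. CPM means counts per 1000000 of the TMM-scaled library. The standard error is the log2 fold change over the square root of the F statistic, and the 95% interval is the fold change with 1.96 standard errors to each side. The fit was tested on simulated data. Total counts ran from 16438639 to 16745514, and 3 counts equal 0.173 to 0.188 CPM, for counting error only. Replicate pairs differed by more than sampling noise.

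The members, their classes and the gene lists were chosen with earlier results of these data known, and none of the counts is independent support. Values in every library were given for the 12 called members with the smallest adjusted p, the 5 with the highest mean RPKM and any called member past 2-fold. From other lists up to 3 called genes were named by adjusted p, and the leading one in the rarer direction, with some others for their known role. Gene models, coding sequences and promoters came from RefSeq on TAIR10.1, where all 57 members were matched. The titles number replicates 1 to 3 in both groups, but deviations of libraries with the same number correlated at 0.0133, 0.00385 and -0.0014. The groups were therefore compared without pairing, though such a check cannot exclude a weak shared origin. Alternatives were DESeq2 1.42.0, RLE size factors, scaling by total counts, no filter on low counts, a replicate block and leaving out each library.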

Additional observations from a re-analysis of the deposited data

How the results depend on the processing

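Of the 21 called members, 19 were called in the same direction under all 11 alternatives. The exceptions were AGP18 and FLA2, whose values stand in the report, and 1 of the 11 members without a call, SOS5, gained one. The number of called members ran from 20 to 22 under all alternatives, with 15 to 17 higher and 4 to 5 lower. Leaving out 1 library at a time gave 20 to 22. A replicate block gave 21 called members, 16 higher and 5 lower, and 4643 called genes in all, against 4593 without it. Over all genes, DESeq2 called 4089 and the fits without 1 library called 3968 to 4150. AGP14 ran from -0.85 to -0.75 and AGP4 from 1.74 to 2.01 on the log2 scale over the alternatives. AGP4 is among the 19, but it passed the filter only through the non-green group, where it was high. Neither its range nor its calls are support for a difference. Depth limits the 19 members with counts that were not tested, of which AGP22 had the most, 51 counts over all libraries. With 3 libraries a group whose separate origin is not stated, a member without a call may still differ.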
